A study of Oryza sativa with 24 samples.

Results

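Fix T2 is a seed generation of a rice line edited to reproduce through clonal seeds, and its flag leaves were compared here with those of CY84, the unedited hybrid from which the line was made. The comparison takes the 4 RNA-seq libraries whose labels name these groups, 2 of Fix T2 and 2 of CY84, out of 12 RNA-seq libraries and 24 samples in all. Both groups have the same hybrid background: CY84, or Chunyou84, is the cross of a japonica male-sterile mother, Chunjiang 16 A, with the indica-japonica intermediate father C84. Fix carries edits of REC8, PAIR1, OSD1 and MTL in that background. Fix T2 plants descended by self-pollination from the founding plant, Fix T0, were checked as diploid by flow cytometry, and were raised from soaked seed in nutrient solution before they were moved to a paddy field. The CY84 plants were kept from one season to the next by their roots, as Fix T0 was. Flag leaves were taken at heading from all groups. The edits, the generations of seed reproduction and the way the plants were raised all separate Fix T2 from CY84, so they cannot be told apart in this comparison. The other Fix generations, T0, T1, T3 and T4 with 2 libraries each, enter the shared estimate of spread and a second comparison. Their own comparisons with CY84 use the same 2 CY84 libraries and are not given as results.

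A hybrid's vigour is normally lost when the plant reproduces sexually, because meiosis shuffles the parental genomes. Loss of REC8, a cohesin that holds sister chromatids together, of PAIR1, needed for meiotic recombination, and of OSD1, which drives entry into the second division, makes meiosis resemble mitosis and yields unreduced gametes with the parental genotype. Loss of MTL, a pollen phospholipase, leads to embryos without the paternal genome, so that the combination gives seeds that copy the mother plant. The question put to the flag leaf, the main source of sugar for the filling grain, is whether gene expression of the hybrid is kept over such generations.

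The labels say flag leaf, and the levels of marker genes can be set beside that. The 3 leaf markers RBCS-A, RCA and LHCP, which serve carbon fixation and light harvesting, together had 18042 and 14556 FPKM in Fix T2 and 11669 and 10756 FPKM in CY84. FPKM divides fragments by gene length and by the mapped fragments of a library, so levels are per length. Of 15 markers of anther, seed storage, root, cell division and meiosis, 13 stayed under 1 FPKM in all 4 libraries and 4 were listed at 0 in all of them (OsC6 of anthers, LSI2 of roots, OSH1 of meristems and PAIR1 of meiosis). Their summed level was 3.71 and 2.42 FPKM in Fix T2 and 4.48 and 4.05 FPKM in CY84. Roots are covered by LSI2 alone. LSI1, a silicon channel also best known from roots, was not among the markers and was expressed. It had 40.5 and 57.1 FPKM in Fix T2 and 18.6 and 19.6 FPKM in CY84. PAIR1, the edited gene whose identifier could be checked, was at 0 in all 4 libraries, so flag leaf RNA checks neither the edit nor the labels, and the other 3 edited genes were not analysed here. ACT1, an actin used as a reference gene, had 45.6 and 41.5 FPKM in Fix T2 and 39.8 and 40.5 FPKM in CY84. The Fix T2 libraries were the least alike pair of the study (Pearson r = 0.936 over tested genes, against 0.982 for CY84). The 10 most abundant genes took 16.5% of the summed FPKM in Fix T2 replicate 1 and 19.3% in replicate 2, against 16.6% and 16.5% in CY84. Relative depth, with CY84 replicate 1 set to 1, was 0.849 and 0.994 in Fix T2 and 0.711 in CY84 replicate 2.

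Few single genes separated Fix T2 from CY84, and the differences were large. Of 18871 tested genes, 30 had an adjusted p under 0.05 (limma, Benjamini-Hochberg) and are said here to pass: 12 rose and 18 fell, 0.0636% and 0.0954% of the genes tested. At an unadjusted p under 0.05 there were 603 genes higher and 4228 lower in Fix T2 (3.2% and 22.4%). All log2 differences compare log2(FPKM + 1), and the added 1 shrinks those of weakly expressed genes. The median difference over all tested genes was -0.33 on the deposited values and 0.03 after rescaling by median-of-ratios factors, which also turned the split of passing genes to 18 higher and 9 lower. Of the 30 genes, 11 of those that rose and 9 of those that fell also passed after rescaling. Both Fix T2 libraries lay above both CY84 libraries in 11.1% of the tested genes and below both in 47.7%; after rescaling these shares were 28.2% and 26.3%. The number of passing genes depended strongly on single libraries: it was 2609 without Fix T2 replicate 1, 10 without Fix T2 replicate 2, 8 and 5 without CY84 replicate 1 or 2, and 1609 and 1602 without Fix T1 replicate 1 or 2. Whether the 2 libraries of a group come from different plants is not stated, so the p-values speak of the spread between libraries, which may be technical. In a whole leaf, fewer cells of a type and less RNA per cell cannot be told apart.

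**Figure D1:**
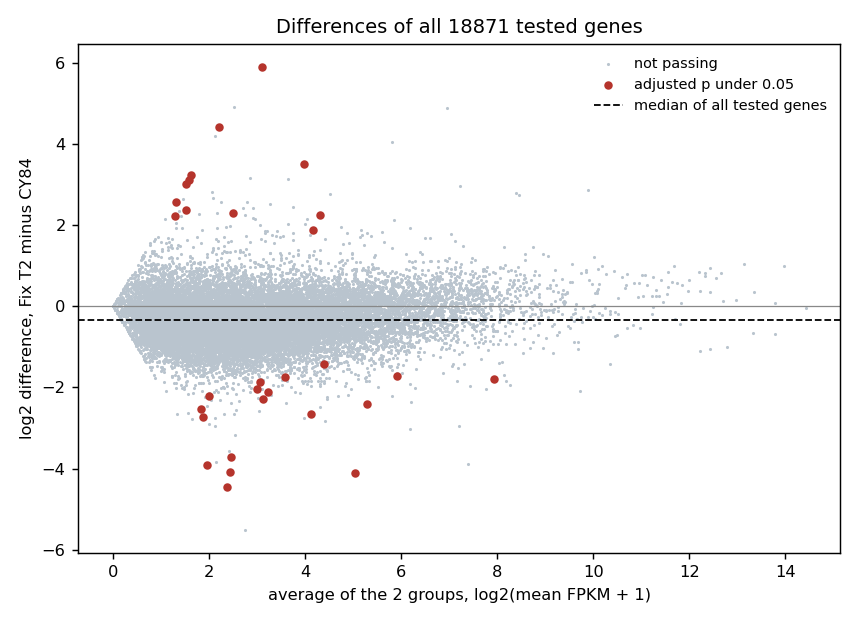
Each point is 1 of the 18871 tested genes, with the average of the 2 groups' levels on the x axis (log2 of the mean FPKM + 1) and the log2 difference, Fix T2 minus CY84, on the y axis. Red points are the 30 genes that passed, 12 above and 18 below 0, and the dashed line is the median of all tested genes at -0.33.

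The 12 genes that rose were mostly silent in the hybrid: 5 were listed at 0 in both CY84 libraries, and the median of their mean levels was 10.1 FPKM in Fix T2 and 0.114 FPKM in CY84. The 18 genes that fell had median mean levels of 3.17 FPKM in Fix T2 and 19.5 FPKM in CY84, and 1 of them was listed at 0 in both Fix T2 libraries. In all 30 the libraries of the groups did not overlap, and the sizes of the log2 differences ran from 1.89 to 5.89 for the genes that rose and from 1.43 to 4.44 for those that fell. Only 2 of the 30, both of which fell, had a name that was paired by hand and found in the annotation. The other 28 had no checked pairing and are described by identifier or by their counts. Such genes are called genes without a name here, although they may carry one elsewhere.

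EIN2, the membrane protein through which the ethylene signal reaches the nucleus, was nearly absent from Fix T2 leaves. It had 0.970 and 0.0690 FPKM in Fix T2, against 7.80 and 6.91 FPKM in CY84 (log2 difference -2.52, SE 0.33, adjusted p = 0.0111). Both Fix T2 libraries lay far below both CY84 libraries, and the difference remained at -2.32 after rescaling (adjusted p = 0.0142). It passed in 16 of 21 alternatives; the call was lost with no filter on low values (adjusted p = 0.0527), with Fix T2 and CY84 alone (0.112), and without CY84 replicate 1 (0.137), CY84 replicate 2 (0.179) or Fix T2 replicate 2 (0.0713).

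GH3.2, an enzyme that joins the auxin indoleacetic acid to amino acids and so removes it from the active pool, also fell. Its levels were 4.31 and 6.86 FPKM in Fix T2, against 18.5 and 22.7 FPKM in CY84 (log2 difference -1.73, SE 0.29, adjusted p = 0.0399). The groups did not overlap, and after rescaling the difference was -1.31 with an adjusted p of 0.0882. It passed in 8 of 21 alternatives, and leaving out any 1 library of CY84, Fix T0, Fix T3 or Fix T4, or Fix T2 replicate 2, ended the call (adjusted p from 0.0525 to 0.418), as did no filter on low values (0.0801) and Fix T2 and CY84 alone (0.134). EIN2 and GH3.2 were paired with their identifiers after their values had been seen.

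Among the genes without a name, the pair with the largest increases was silent or nearly so in the hybrid. LOC_Os03g02470 had 69.6 and 60.5 FPKM in Fix T2, against 0 and 0.232 FPKM in CY84 (log2 difference 5.89, SE 0.29, adjusted p = 1.96e-06). LOC_Os03g18779 had 21.8 and 19.0 FPKM in Fix T2 and was listed at 0 in both CY84 libraries (adjusted p = 1.76e-05). The pair with the largest decreases was well expressed in the hybrid. LOC_Os05g49240 was at 0.205 and 0 FPKM in Fix T2, against 19.4 and 26.8 FPKM in CY84 (log2 difference -4.44, SE 0.44, adjusted p = 0.00109). LOC_Os03g59180 had 5.80 and 8.10 FPKM in Fix T2, against 125 and 148 FPKM in CY84 (log2 difference -4.12, SE 0.55, adjusted p = 0.0119). In all 4 genes the libraries of the groups were far apart, and all 4 passed after rescaling. LOC_Os03g59180 lost its call with no filter on low values (adjusted p = 0.0792) and without CY84 replicate 1 (0.0826), CY84 replicate 2 (0.209) or Fix T2 replicate 2 (0.0812), and LOC_Os05g49240 with a pseudocount of 0.1 (0.0699).

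Known pathways of the leaf were followed through 307 rice genes whose names were found in the annotation at the identifier's place, of which 239 reached the level needed for the test. The list sizes given from here on count only these 307 genes. Of 453 pairings, 132 had a name that the annotation lacked, so many lists cover only a part of their pathway. Of the 239 tested genes, 0 passed as higher and 2 as lower, against 0.0636% and 0.0954% of all tested genes. The 2 are EIN2 and GH3.2, paired after their values had been seen, so this count is no result about the lists. At an unadjusted p under 0.05 there were 19 higher and 53 lower (7.95% and 22.2%, against 3.2% and 22.4% of all tested genes). Levels given from here on for the comparison with CY84 belong to genes that did not pass, unless EIN2 or GH3.2 is named. In 50 of the 239 both Fix T2 libraries lay above both CY84 libraries and in 95 below both (20.9% and 39.7%, against 11.1% and 47.7% of all tested genes). After rescaling the counts were 96 and 48 (40.2% and 20.1%, against 28.2% and 26.3%). The 20 named genes with the smallest p, at a mean of at least 5 FPKM in one of the groups, are EIN2, GH3.2 and 18 more, with adjusted p from 0.053 to 0.105 for the 18.

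**Figure D2:**
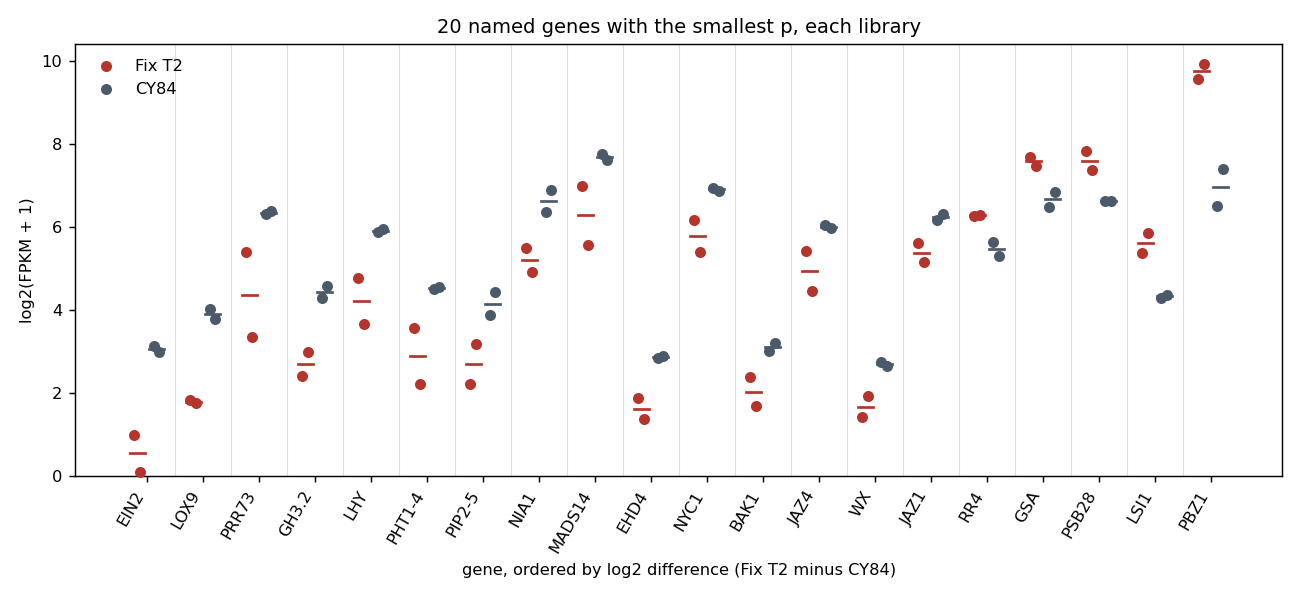
Levels of the 20 named genes with the smallest p in each library, as log2(FPKM + 1), with Fix T2 (red) left of CY84 (grey) and a bar at the mean of each group. The groups do not overlap in any of the 20 genes; 15 lie lower in Fix T2, with EIN2 the farthest below, and 5 lie higher, with PBZ1 the farthest above.

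In photosynthesis, most of the listed nuclear genes for light capture and carbon fixation stood on the high side in Fix T2. Many other antenna, photosystem and Calvin cycle genes had no checked name and were left out. All 9 listed genes of the light reactions were tested, and their median log2 difference was 0.39, or 0.86 after rescaling, against -0.33 and 0.03 for all tested genes. LHCP, a chlorophyll-binding protein of the light-harvesting antenna, had 8453 and 6827 FPKM in Fix T2, against 4125 and 3813 FPKM in CY84 (log2 difference 0.94, SE 0.35, adjusted p = 0.140). CAB2R, another antenna protein, had 18373 and 27548 FPKM in Fix T2 and 11798 and 10713 FPKM in CY84. PSB28, a protein that assists the assembly of photosystem II, had 225 and 165 FPKM in Fix T2, against 97.7 and 98.5 FPKM in CY84 (log2 difference 0.97, adjusted p = 0.103). In 5 of the 9 genes both Fix T2 libraries lay above both CY84 libraries and in 1, LFNR1, below both, against 11.1% and 47.7% of all tested genes. After rescaling the counts were 6 and 0, against 28.2% and 26.3%.

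The small subunit of Rubisco, the enzyme that fixes carbon dioxide, showed the same side. RBCS-C had 16227 and 10076 FPKM in Fix T2, against 6208 and 6238 FPKM in CY84 (log2 difference 1.04, SE 0.43, adjusted p = 0.164). RBCS-A had 1892 and 1409 FPKM in Fix T2 and 775 and 871 FPKM in CY84. RCA, which keeps Rubisco active, overlapped between the groups, at 7698 and 6320 FPKM in Fix T2 and 6770 and 6073 FPKM in CY84. RPE, an enzyme of the Calvin cycle, stood at 418 and 306 FPKM in Fix T2 and 400 and 392 FPKM in CY84, and its difference turned sign with rescaling (-0.15 and 0.32). All 4 listed Calvin cycle genes were tested, and their median difference was 0.56, or 1.03 after rescaling.

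Chlorophyll synthesis and breakdown lay on opposite sides of the median gene. All 9 listed synthesis genes were tested, with a median difference of 0.42 (0.88 after rescaling); in 5 both Fix T2 libraries lay above both CY84 libraries, and in 0 below both, against 11.1% and 47.7% of all tested genes. After rescaling the counts were 7 and 0, against 28.2% and 26.3%. PORA, which reduces protochlorophyllide in the light, had 721 and 473 FPKM in Fix T2, against 223 and 258 FPKM in CY84 (log2 difference 1.28, SE 0.40, adjusted p = 0.107). GSA, which makes the precursor aminolevulinic acid, had 206 and 176 FPKM in Fix T2, against 88.5 and 114 FPKM in CY84 (log2 difference 0.92, adjusted p = 0.0951). CHLI, a subunit of the chelatase that inserts magnesium, had 132 and 101 FPKM in Fix T2 and 59.2 and 76.4 FPKM in CY84. The other members were not all alike: CAO, which makes chlorophyll b, had 163 and 56.4 FPKM in Fix T2, on either side of 132 and 102 FPKM in CY84.

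Of the 7 listed genes of chlorophyll breakdown and senescence 6 were tested, and in all 6 both Fix T2 libraries lay below both CY84 libraries, against 47.7% of all tested genes. After rescaling this held for 4 of the 6, against 26.3%, and the median difference was -0.96, or -0.56 after rescaling. SGR, the magnesium dechelatase that starts the breakdown, had 5.94 and 5.04 FPKM in Fix T2, against 19.9 and 37.1 FPKM in CY84 (log2 difference -2.12, SE 0.68, adjusted p = 0.108). NYC1, which reduces chlorophyll b, had 70.5 and 41.4 FPKM in Fix T2, against 122 and 115 FPKM in CY84 (log2 difference -1.12, adjusted p = 0.0859). RCCR1, a reductase of red chlorophyll catabolites, had 5.40 and 6.40 FPKM in Fix T2 and 16.7 and 14.8 FPKM in CY84. OSL2, an aminotransferase gene known from senescing rice leaves, had 19.8 and 15.1 FPKM in Fix T2 and 31.1 and 24.7 FPKM in CY84.

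**Figure D3:**
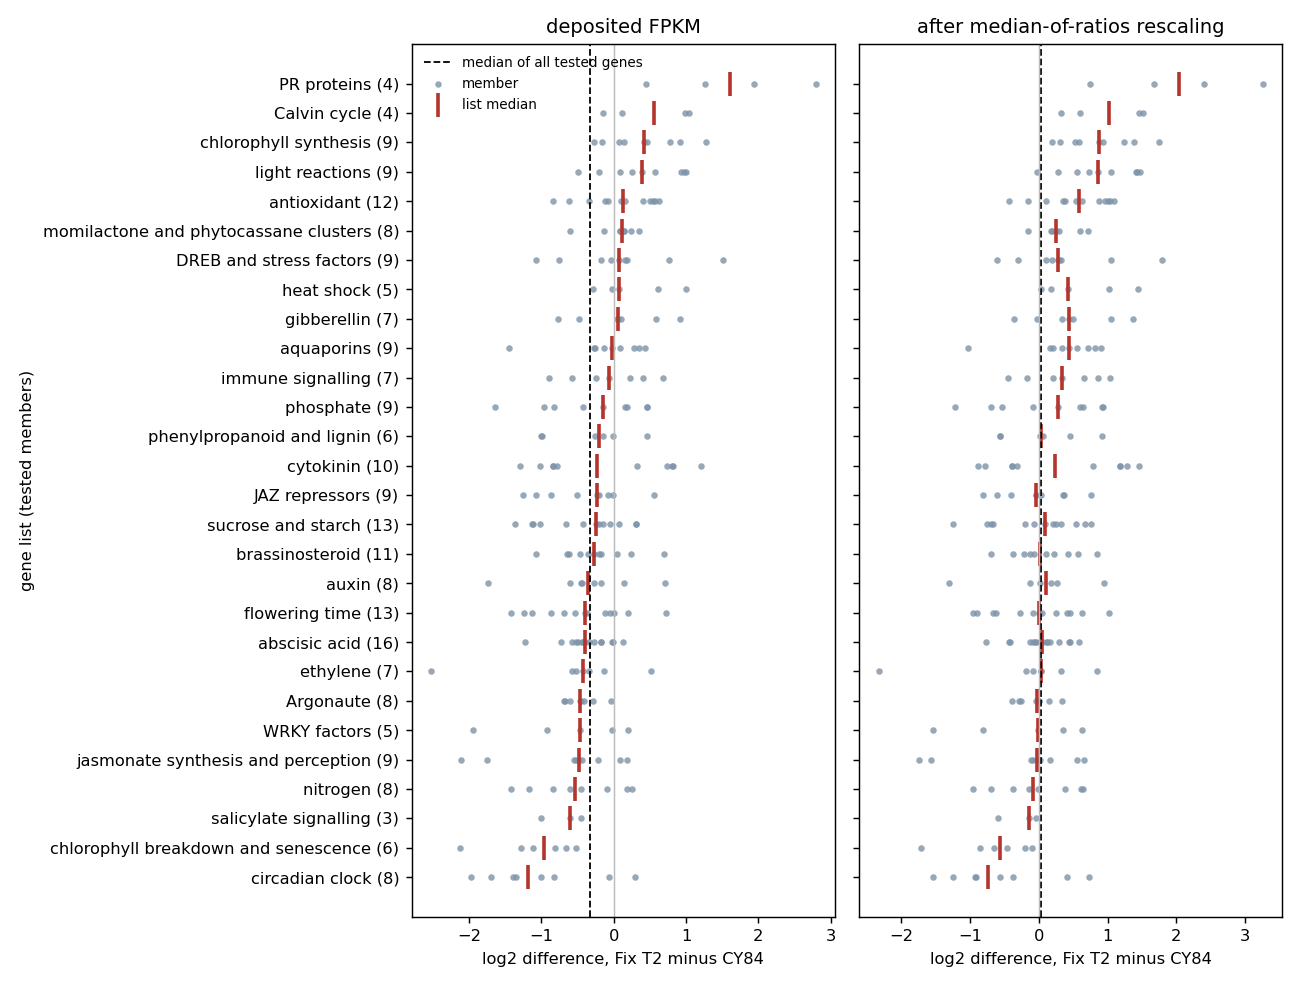
Log2 differences, Fix T2 minus CY84, of the tested members of each gene list (grey points, number of members in brackets), with the list median in red, for deposited FPKM on the left and after rescaling on the right. The dashed line is the median of all tested genes, -0.33 on the left and 0.03 on the right; pathogenesis-related proteins stand highest, with a median of 1.61, and the circadian clock lowest, with -1.18.

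The circadian clock had the lowest median of the 28 lists with at least 3 tested members, and it was also where the Fix T2 libraries differed most. All 8 listed clock genes were tested, with a median difference of -1.18 (-0.74 after rescaling); in 6 both Fix T2 libraries lay below both CY84 libraries, against 47.7% of all tested genes, and after rescaling in 5, against 26.3%. The median was -0.41 in Fix T2 replicate 1 and -1.96 in replicate 2, each taken against the mean of CY84. PRR73, a repressor active in the middle of the day, had 41.0 and 9.16 FPKM in Fix T2, against 78.3 and 82.5 FPKM in CY84 (log2 difference -1.98, SE 0.53, adjusted p = 0.0891). LHY, the morning transcription factor of the clock, had 26.1 and 11.7 FPKM in Fix T2, against 57.3 and 60.3 FPKM in CY84 (log2 difference -1.69, adjusted p = 0.0859). Replicate 2 was the lower of the pair in both genes, and likewise in PRR95 and ELF3-1. PRR95 had 266 and 84.6 FPKM in Fix T2 and 420 and 370 FPKM in CY84, and ELF3-1, part of the evening complex, had 16.94 and 4.23 FPKM in Fix T2 and 24.7 and 22.8 FPKM in CY84. GI, an evening component that links the clock to flowering, had 229 and 118 FPKM in Fix T2, on either side of 173 and 171 FPKM in CY84. No label gives the time of day of the harvest, and its part in these values was not tested.

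Flowering genes followed the same split between the Fix T2 libraries. Of 15 listed genes 13 were tested, with medians of 0.11 in replicate 1 and -0.96 in replicate 2, and -0.39 over both (0.00 after rescaling). MADS14, which specifies inflorescence and floral meristems, had 127 and 46.0 FPKM in Fix T2, against 216 and 196 FPKM in CY84 (log2 difference -1.42, SE 0.39, adjusted p = 0.0899). MADS18, a related factor, had 49.4 and 23.3 FPKM in Fix T2 and 71.8 and 79.0 FPKM in CY84. HD3A, a florigen gene, overlapped between the groups, with 97.0 and 55.8 FPKM in Fix T2 and 70.9 and 82.3 FPKM in CY84. EHD4, an activator upstream of it, had 2.65 and 1.58 FPKM in Fix T2, against 6.15 and 6.38 FPKM in CY84.

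**Figure D4:**
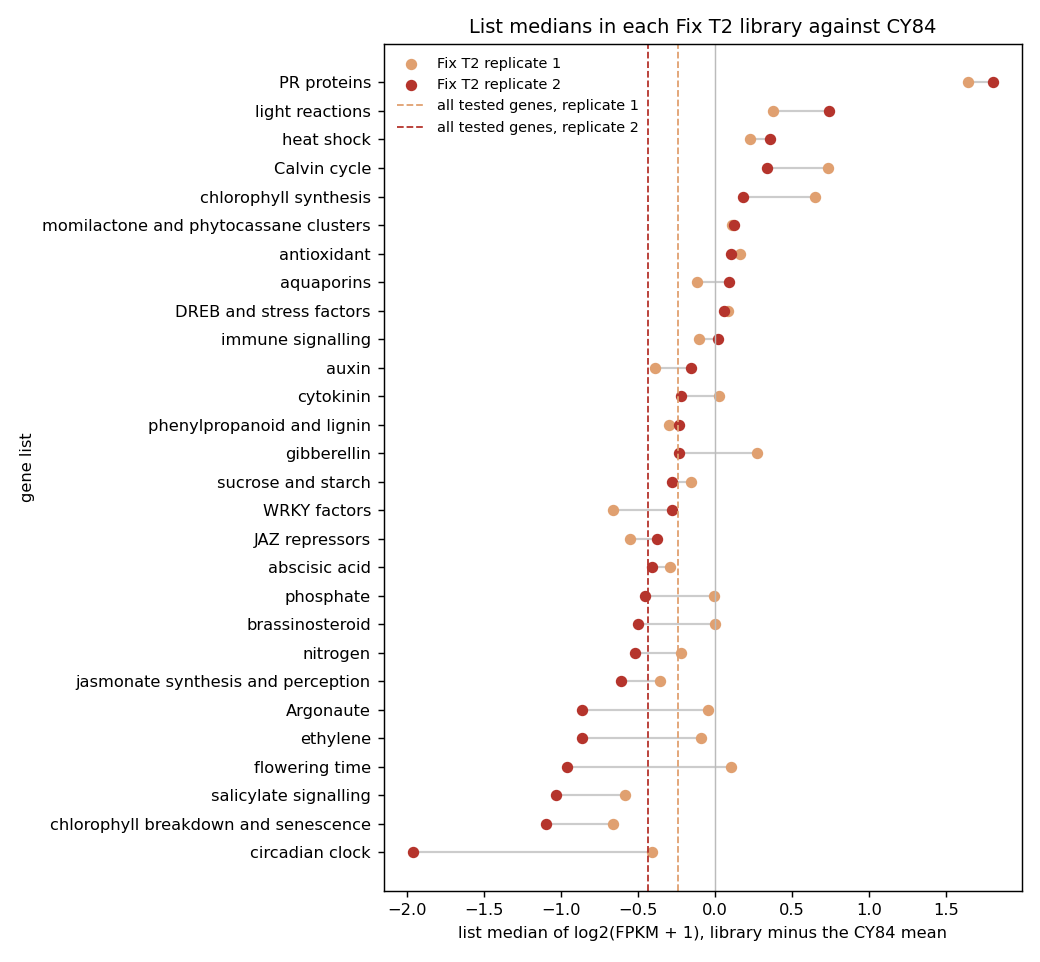
Median of each gene list in Fix T2 replicate 1 (orange) and replicate 2 (red), as log2(FPKM + 1) minus the mean of CY84, with dashed lines at the medians of all tested genes, -0.24 and -0.43. The points of the circadian clock lie farthest apart, at -0.41 and -1.96, and those of the pathogenesis-related proteins lie together at 1.64 and 1.81.

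Pathogenesis-related proteins, which plants make against microbes and under stress, had the highest list median, at 1.61 (2.04 after rescaling), with 4 of 6 listed genes tested. The median was 1.64 in Fix T2 replicate 1 and 1.81 in replicate 2. PBZ1, a small ribonuclease-like protein induced by probenazole and fungal attack, had 764 and 968 FPKM in Fix T2, against 90.4 and 169 FPKM in CY84 (log2 difference 2.79, SE 0.50, adjusted p = 0.053). The chitinase CHT8 had 41.8 and 61.0 FPKM in Fix T2, against 9.98 and 15.3 FPKM in CY84 (log2 difference 1.95, SE 0.75, adjusted p = 0.146). CHT1, another chitinase, had 8.32 and 10.2 FPKM in Fix T2 and 2.32 and 4.46 FPKM in CY84. Both Fix T2 libraries lay above both CY84 libraries in these 3 genes, against 11.1% of all tested genes, and CHT5 overlapped, with 7.91 and 0.800 FPKM in Fix T2 on either side of 1.27 and 2.78 FPKM in CY84.

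The lists of defence signalling had medians nearer that of all tested genes, and their difference from the pathogenesis-related proteins was not tested. All 3 listed genes of salicylate signalling were tested and lay below CY84 in both Fix T2 libraries, against 47.7% of all tested genes, but 1 did so after rescaling, near the 26.3% of all genes (median difference -0.60, or -0.14 after rescaling). NH1, the receptor-like regulator of salicylate responses, had 5.51 and 6.83 FPKM in Fix T2 and 8.71 and 8.81 FPKM in CY84. WRKY76, a transcription factor that represses defence genes, had 1.52 and 7.69 FPKM in Fix T2, against 18.2 and 15.9 FPKM in CY84 (log2 difference -1.95, SE 0.80, adjusted p = 0.162). All 5 listed WRKY genes were tested, with a median of -0.47 (-0.01 after rescaling). The 7 immune signalling genes, all tested, had a median of -0.07 (0.33 after rescaling), above that of all tested genes on either scale: RBOHB, an oxidase that makes reactive oxygen, had 44.6 and 18.7 FPKM in Fix T2 and 56.1 and 53.7 FPKM in CY84, and CEBIP, a chitin receptor, had 28.8 and 16.8 FPKM in Fix T2, overlapping with 15.3 and 17.37 FPKM in CY84. Of 9 listed genes of the momilactone and phytocassane clusters, which make antimicrobial diterpenes, 8 were tested. Their median was 0.11 (0.26 after rescaling), also above that of all tested genes. At an unadjusted p under 0.05 there were 0 of them, against 3.2% of all tested genes higher and 22.4% lower.

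Jasmonate, a hormone of wounding and defence, is made from fatty acids in a short chain of enzymes. LOX9, a lipoxygenase of the class that starts such chains, had 2.55 and 2.35 FPKM in Fix T2, against 15.2 and 12.7 FPKM in CY84 (log2 difference -2.12, SE 0.37, adjusted p = 0.053). The Fix T2 libraries were close to each other and far below CY84. AOS2, an allene oxide synthase, had 0.399 and 0.171 FPKM in Fix T2 and 3.62 and 2.98 FPKM in CY84. All 9 listed genes of synthesis and perception were tested, with a median of -0.48 (-0.02 after rescaling). Of 13 listed JAZ genes, whose products repress jasmonate responses, 9 were tested, with a median of -0.23 (-0.04 after rescaling). JAZ1 had 47.6 and 34.8 FPKM in Fix T2 and 71.1 and 79.0 FPKM in CY84, and JAZ6 had 21.4 and 7.54 FPKM in Fix T2 and 32.0 and 31.9 FPKM in CY84.

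The other members of the ethylene and auxin lists stood near the median gene. Of 9 listed ethylene genes 7 were tested, with a median of -0.43 (0.04 after rescaling), and EIN2 alone passed. EIL1, the transcription factor downstream of EIN2, had 133 and 82.6 FPKM in Fix T2 and 140 and 142 FPKM in CY84 (log2 difference -0.43, or 0.04 after rescaling). The receptor ETR3 had 12.6 and 7.37 FPKM in Fix T2 and 13.9 and 14.6 FPKM in CY84. Of 15 listed auxin genes 8 were tested, with a median of -0.35 (0.10 after rescaling). IAA13, a repressor of auxin responses, had 33.3 and 68.9 FPKM in Fix T2, around 64.5 and 66.2 FPKM in CY84, and its difference turned sign with rescaling (-0.44 and 0.03).

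Among the remaining hormones, cytokinin genes lay on both sides of CY84. Of 15 listed cytokinin genes 10 were tested, 3 with an unadjusted p under 0.05 on the high side and 4 on the low side, against 3.2% and 22.4% of all tested genes (median -0.23, or 0.24 after rescaling). RR4, a response regulator, had 76.4 and 77.2 FPKM in Fix T2, against 48.5 and 38.1 FPKM in CY84 (log2 difference 0.82, SE 0.24, adjusted p = 0.0956), while RR9, another one, had 12.3 and 4.94 FPKM in Fix T2 and 29.0 and 14.97 FPKM in CY84. GA20OX2, the gibberellin synthesis enzyme known from semidwarf rice, had 37.8 and 79.5 FPKM in Fix T2, against 29.1 and 28.3 FPKM in CY84 (log2 difference 0.91, adjusted p = 0.143). Of 8 listed gibberellin genes 7 were tested, with a median of 0.06 (0.43 after rescaling). Abscisic acid genes, 16 of 19 tested, had a median of -0.40 (0.04 after rescaling). At an unadjusted p under 0.05 there were 0 of them, against 3.2% of all tested genes higher and 22.4% lower. Their farthest member at a mean of 5 FPKM, the phosphatase PP2C68, had 14.2 and 23.6 FPKM in Fix T2 and 47.5 and 40.5 FPKM in CY84. The 11 brassinosteroid genes, all tested, had a median of -0.27 (0.02 after rescaling), with the co-receptor BAK1 at 4.17 and 2.22 FPKM in Fix T2 and 7.04 and 8.13 FPKM in CY84.

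In nutrient uptake, nitrate reductase and a phosphate transporter lay low in Fix T2 and a silicon channel lay high. NIA1, which reduces nitrate to nitrite, had 44.3 and 29.0 FPKM in Fix T2, against 80.5 and 118 FPKM in CY84 (log2 difference -1.42, SE 0.31, adjusted p = 0.0761). GLU, a glutamate synthase, had 148 and 57.9 FPKM in Fix T2 and 215 and 203 FPKM in CY84. Of 12 listed nitrogen genes 8 were tested, with a median of -0.53 (-0.08 after rescaling). PHT1-4, a phosphate transporter, had 10.8 and 3.62 FPKM in Fix T2, against 21.6 and 22.3 FPKM in CY84 (log2 difference -1.64, SE 0.40, adjusted p = 0.0859). PHR2, the central regulator of phosphate starvation responses, had 9.86 and 6.41 FPKM in Fix T2 and 16.5 and 16.5 FPKM in CY84. Of 13 listed phosphate genes 9 were tested, with a median of -0.15 (0.28 after rescaling). LSI1, the silicon influx channel best known from roots, had 40.5 and 57.1 FPKM in Fix T2, against 18.6 and 19.6 FPKM in CY84 (log2 difference 1.29, SE 0.29, adjusted p = 0.0807). Of 11 listed aquaporins 9 were tested, with a median of -0.03 (0.44 after rescaling). PIP2-5, a water channel of the plasma membrane, had 3.67 and 8.08 FPKM in Fix T2 and 13.7 and 20.5 FPKM in CY84.

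Sugar export and starch genes stood near the median gene. Of 17 listed genes 13 were tested, with a median of -0.24 (0.10 after rescaling), and in 8 both Fix T2 libraries lay below both CY84 libraries, against 47.7% of all tested genes. After rescaling 3 did, near the 26.3% of all genes. SWEET13, a sucrose exporter of the leaf veins, had 5.44 and 2.06 FPKM in Fix T2, against 8.27 and 9.05 FPKM in CY84 (log2 difference -1.12, SE 0.41, adjusted p = 0.136). SBE1, a starch branching enzyme, had 13.7 and 4.33 FPKM in Fix T2 and 16.2 and 20.2 FPKM in CY84. WX, the starch synthase that makes amylose, had 1.66 and 2.80 FPKM in Fix T2 and 5.66 and 5.25 FPKM in CY84. SUT1, which loads sucrose into the phloem, had 16.88 and 18.4 FPKM in Fix T2 and 13.5 and 14.5 FPKM in CY84.

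The stress lists stood near 0 on the deposited values, which is above the median of all tested genes (-0.33, or 0.03 after rescaling). All 12 antioxidant genes were tested, with a median of 0.13 (0.58 after rescaling). SODCC1, a cytosolic superoxide dismutase, had 167 and 255 FPKM in Fix T2, against 127 and 140 FPKM in CY84, and the catalase CATB had 33.4 and 36.1 FPKM in Fix T2, against 50.8 and 57.6 FPKM in CY84. Heat shock genes, 5 of 9 tested, had a median of 0.07 (0.42 after rescaling). HSP17.9A, a small chaperone, had 16.4 and 30.9 FPKM in Fix T2, against 10.6 and 10.99 FPKM in CY84 (log2 difference 1.00, SE 0.35, adjusted p = 0.121). The DREB and stress factors, 9 of 11 tested, had a median of 0.07 (0.27 after rescaling), with members from -1.08 to 1.51. In 4 both Fix T2 libraries lay above both CY84 libraries and in 3 below both, against 11.1% and 47.7% of all tested genes. After rescaling the counts were 7 and 1, against 28.2% and 26.3%. The lowest was NAC6, a factor of drought and salt responses, at 79.7 and 109 FPKM in Fix T2 and 188 and 207 FPKM in CY84. The highest was the weakly expressed DREB1B, at 2.03 and 3.83 FPKM in Fix T2 and 0.351 and 0.329 FPKM in CY84. Argonaute genes, whose products carry small RNAs, had 8 of 9 members tested and all 8 differences below 0, with a median of -0.46, or -0.02 after rescaling, close to the median of all genes on either scale. Their medians in the Fix T2 libraries were -0.04 in replicate 1 and -0.86 in replicate 2.

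The second comparison sets Fix T2 against the mean of the other Fix generations, T0, T1, T3 and T4, and so asks which differences are particular to Fix T2 within the edited line. Of 18871 tested genes 107 passed, 6 higher and 101 lower in Fix T2 (0.0318% and 0.535%). After rescaling 28 passed, 7 higher and 21 lower. The median of all tested genes was -0.28 on the deposited values and 0.02 after rescaling. At an unadjusted p under 0.05 there were 443 genes higher and 4289 lower. No gene passed without Fix T2 replicate 2, where 386 and 1636 genes had an unadjusted p under 0.05, and 1854 passed without replicate 1. The count was also 12 and 23 without Fix T0 replicate 1 or 2, 2723 and 199 without Fix T1 replicate 1 or 2, 69 without Fix T3 replicate 2, 18 without Fix T4 replicate 2, and 36 and 32 without CY84 replicate 1 or 2, where CY84 enters only the estimate of spread.

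Of the 30 genes that separated Fix T2 from CY84, 4 also passed here, EIN2 and GH3.2 among them, all lower in Fix T2. None of the 12 genes that rose against CY84 passed here (5 at an unadjusted p under 0.05), and their median difference from the other Fix generations was 0.40. EIN2 had 0.970 and 0.0690 FPKM in Fix T2, against 1.59 and 1.17 FPKM in Fix T0 and 4.51 to 8.13 FPKM in the libraries of Fix T1, T3 and T4 (log2 difference -1.90, SE 0.26, adjusted p = 0.0152). Fix T0 was thus low as well, and the Fix T2 libraries were lower still. GH3.2 had 4.31 and 6.86 FPKM in Fix T2, against 10.6 to 23.1 FPKM in the 8 other Fix libraries (log2 difference -1.44, SE 0.23, adjusted p = 0.0226, or 0.0714 after rescaling).

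Of the 101 genes that passed as lower in Fix T2 than in the other generations, 8 had a checked name, and 3 of these encode phenylpropanoid enzymes. That pathway builds lignin and soluble phenolics. Of the 107 passing genes 99 had no checked name, so this share depends on which genes were listed. Of 7 listed phenylpropanoid genes 6 were tested, and the list median was -1.51 (-1.20 after rescaling). On the low side 3 passed and on the high side 0, against 0.535% and 0.0318% of all tested genes. At an unadjusted p under 0.05 there were 4 lower and 0 higher, against 4289 and 443 of all 18871 tested genes. 4CL3, a ligase that activates cinnamic acids, had 20.6 and 13.7 FPKM in Fix T2, against 51.7 and 41.4 in Fix T0, 54.3 and 103 in Fix T1, 131 and 131 in Fix T3 and 94.4 and 161 FPKM in Fix T4 (log2 difference -2.30, SE 0.27, adjusted p = 0.0113). COMT1, a methyltransferase of lignin units, had 88.7 and 103 FPKM in Fix T2, against 128 to 588 FPKM in the other Fix libraries (log2 difference -1.77, SE 0.24, adjusted p = 0.0143). CAD2, the alcohol dehydrogenase of the last step, had 22.5 and 53.4 FPKM in Fix T2, against 31.0 to 368 FPKM in the other Fix libraries (log2 difference -1.83, SE 0.35, adjusted p = 0.0434, or 0.09998 after rescaling). In 4CL3 and COMT1 both Fix T2 libraries lay below all 8 other Fix libraries, and in CAD2 replicate 2 overlapped with Fix T0.

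Against CY84 the same enzymes showed smaller differences that did not pass. COMT1, with 88.7 and 103 FPKM in Fix T2, had 92.7 and 100.1 FPKM in CY84, inside the range of the Fix T2 libraries (log2 difference -0.01, or 0.46 after rescaling), and CAD2, with 22.5 and 53.4 FPKM in Fix T2, had 25.4 and 24.7 FPKM in CY84 (0.46, with an adjusted p of 0.528, or -0.15 without Fix T2 replicate 2). 4CL3 had 20.6 and 13.7 FPKM in Fix T2, against 38.5 and 31.4 FPKM in CY84 (-1.01, adjusted p = 0.119). The list median against CY84 was -0.21 (0.04 after rescaling).

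LOX9 stood apart more widely against the other Fix generations than against CY84. It had 2.55 and 2.35 FPKM in Fix T2, against 11.1 to 38.0 FPKM in the 8 other Fix libraries (log2 difference -2.64, SE 0.30, adjusted p = 0.0113, or 0.0159 after rescaling). PHT1-4 had 10.8 and 3.62 FPKM in Fix T2, against 18.2 to 39.0 FPKM in the other Fix libraries (log2 difference -2.00, SE 0.32, adjusted p = 0.0232, or 0.0531 after rescaling). A second phosphate transporter, PHT1-1, had 48.2 and 62.6 FPKM in Fix T2, against 49.5 and 53.5 FPKM in Fix T0 and 91.8 to 174 FPKM in Fix T1, T3 and T4 (log2 difference -0.94, adjusted p = 0.0451, or 0.169 after rescaling). In LOX9 and PHT1-4 no Fix T2 library overlapped with another Fix library, and in PHT1-1 those of Fix T0 did. PBZ1, in contrast, was at 764 and 968 FPKM in Fix T2 and differed from the mean of the other Fix generations by 0.31 (adjusted p = 0.639). NIA1 and LSI1 likewise differed from that mean by only 0.03 (adjusted p = 0.948) and 0.08 (adjusted p = 0.857).

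**Figure D5:**
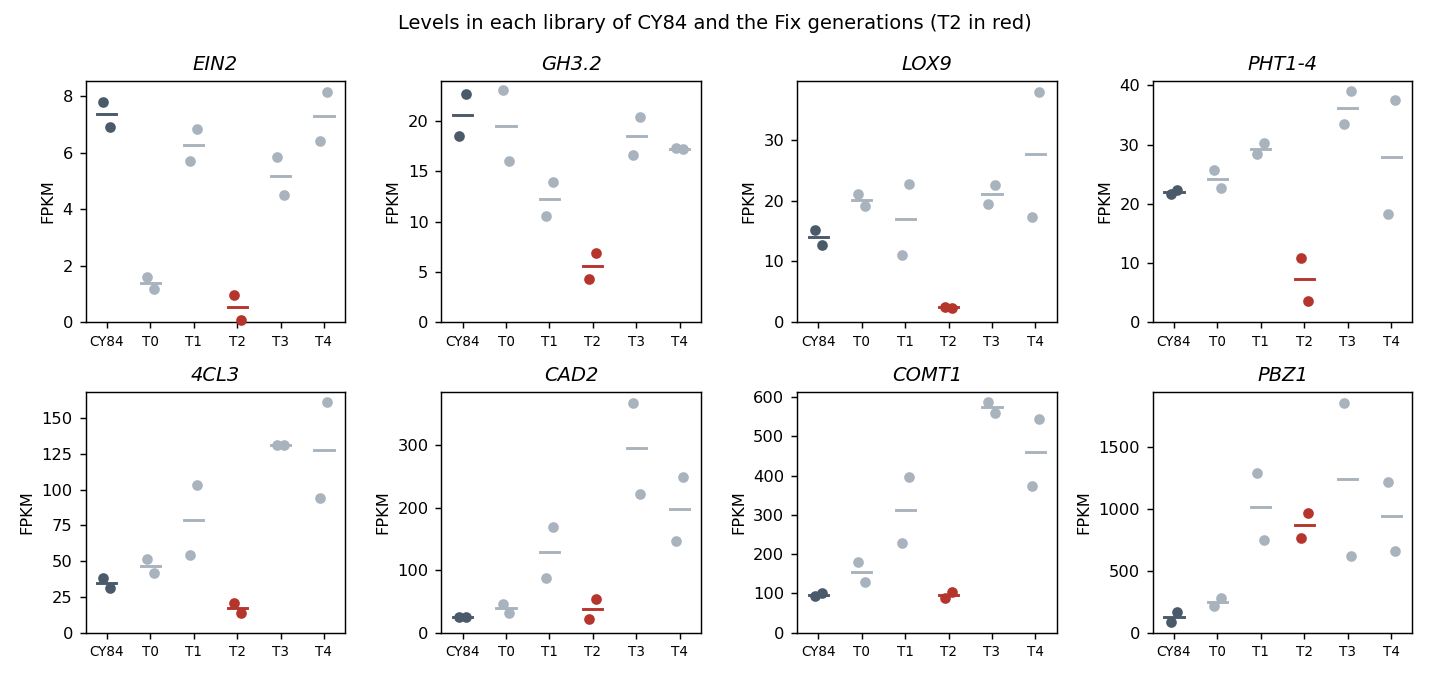
FPKM of 8 genes in each library of CY84 and of Fix T0 to T4, with a bar at each group mean; Fix T2 is red and CY84 dark grey. LOX9, PHT1-4, GH3.2 and 4CL3 are lowest in both Fix T2 libraries, EIN2 is low in Fix T0 and Fix T2, CAD2 and COMT1 are near CY84 in Fix T2 and higher in Fix T1, T3 and T4, and PBZ1 is high from Fix T1 to Fix T4.

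For the genes without a name, LOC_Os01g63180 and LOC_Os07g48800 had the largest differences on the low side. LOC_Os01g63180 had 1.15 and 1.66 FPKM in Fix T2, against 2.28 to 65.1 FPKM in the other Fix libraries (log2 difference -2.70, adjusted p = 0.0358, or 0.0561 after rescaling), and LOC_Os07g48800 had 4.63 and 10.8 FPKM, against 26.6 to 76.2 FPKM (-2.44, adjusted p = 0.0113). On the high side, LOC_Os05g08420 had 29.1 and 68.0 FPKM in Fix T2, against 2.08 to 4.75 FPKM in Fix T1 and T3 and 31.5 to 40.4 FPKM in Fix T0 and T4 (log2 difference 1.94, adjusted p = 0.0221). Fix T2 was thus near Fix T0, Fix T4 and CY84 (32.3 and 34.1 FPKM) in this gene, and the contrast rests on Fix T1 and T3. LOC_Os01g18310 had 7.03 and 7.10 FPKM in Fix T2, above 1.04 to 2.59 FPKM in all 8 other Fix libraries (log2 difference 1.61, adjusted p = 0.0348).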

How the data were processed

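RNA-seq values of 12 flag leaf libraries were used, 2 in each of 6 groups; 12 bisulfite samples and 20 columns without a name were left out. The authors deposited FPKM per library and gene under MSU identifiers. The submitters' processing notes name Trimmomatic 0.39, HISAT2 2.1.0, StringTie 1.3.4d and featureCounts 1.6.4, among others; the step each served and the genome build are not given in the sources used here. Without counts the absolute depth is unknown, so intervals for counting error are not given; relative depth was taken from the mode of the ratios between low values.

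Genes with at least 1 FPKM in at least 2 libraries were tested (18871 of 55801; 26866 were at 0 throughout). On log2(FPKM + 1), limma 3.58.1 (R 4.3.3) was fitted with 1 mean per group, 6 residual degrees of freedom shared by all groups and a trended prior, and p-values were adjusted over all tested genes (Benjamini-Hochberg, threshold 0.05). The fit was tested on simulated data with the same spread in every library and no shift between libraries. That run therefore cannot speak to the dependence on single libraries. The alternatives were another pseudocount, no filter and a stricter one, median-of-ratios rescaling, library weights, a block for the replicate number, fewer groups, and leaving out each library. The fit without both Fix T1 libraries was chosen after seeing the data.

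Names were paired with identifiers by hand from rice nomenclature. Of 453 pairings, the 307 whose name the RefSeq annotation holds on the identifier's chromosome and in gene order were used. The annotation lacked the name of 132, 12 lay elsewhere and 2 identifiers were not in the table. A pair of leaf markers carries the annotation's symbols, RBCS-A and LHCP. Named genes are those that passed with a log2 difference of at least 1 and a mean of at least 5 FPKM; as under 5 had a name, also the 20 with the smallest p; up to 4 members of each list with the largest differences and a mean of at least 5 FPKM, from which a selection is printed; and the first 5 each way against the other Fix generations. Genes printed beside these, such as GI, CAO, CHT5, AOS2, HD3A, SUT1, PHT1-1 and COMT1's contrast with the other generations, were chosen after their values were seen. The comparisons, members and lists were chosen with earlier results of these data known. Replicate numbers did not pair libraries: equally numbered libraries deviated together (r over 0.1) in 2 of 15 pairs of groups. The largest r in size was negative, at -0.304 between Fix T0 and Fix T2, and the highest was 0.193 between Fix T3 and Fix T4.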

Additional observations from a re-analysis of the deposited data

Results flagged for a closer look

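Each gene here differed between Fix T2 and the mean of the other Fix generations (limma, adjusted p under 0.05), which is the difference between the effects of the 2 sides when both are taken against CY84. The named genes lay lower in Fix T2, with log2 differences of -2.64 for LOX9, -2.30 for 4CL3, -2.00 for PHT1-4, -1.90 for EIN2, -1.83 for CAD2, -1.77 for COMT1, -1.44 for GH3.2 and -0.94 for PHT1-1. Of the genes without a name, LOC_Os01g63180 and LOC_Os07g48800 lay lower, by -2.70 and -2.44, and LOC_Os05g08420 and LOC_Os01g18310 lay higher, by 1.94 and 1.61. Each of the 12 genes lost its call with library weights and without Fix T2 replicate 2, and after rescaling PHT1-4 (adjusted p = 0.0531), CAD2 (0.09998), GH3.2 (0.0714), LOC_Os01g63180 (0.0561) and PHT1-1 (0.169) lost it too. With no filter on low values LOX9 and 4CL3 alone kept it. Of 19 alternatives, LOX9 and 4CL3 passed in 17, COMT1 and LOC_Os07g48800 in 16, EIN2 in 15, LOC_Os05g08420 in 13, GH3.2 in 12, PHT1-4 in 10, LOC_Os01g18310 and LOC_Os01g63180 in 7, CAD2 in 6 and PHT1-1 in 5. Groups of 2 libraries are too small to look for a single library outside its group.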

How the results depend on the processing

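The count of genes that passed between Fix T2 and CY84, 30 as reported, was 16 with no filter, 63 with library weights, 11 with Fix T2 and CY84 alone, 240 with CY84, Fix T0 and Fix T2 alone and 1602 without both Fix T1 libraries, and ran from 5 to 2609 when 1 library was left out. With a replicate block it was 25, which is within 1.5 times; the numbers did not pair the libraries. Against the other Fix generations the count, 107 as reported, was 12 with no filter, 28 after rescaling, 55 with a replicate block, 0 with library weights (where an unadjusted p under 0.05 was reached by 165 genes on the high side and 2379 on the low side) and 1323 without both Fix T1 libraries, and ran from 0 to 2723 when 1 library was left out. The replicate block also ended the calls of GH3.2 against CY84 (adjusted p = 0.0543) and of CAD2 (0.0560), PHT1-1 (0.0546), LOC_Os01g18310 and LOC_Os01g63180 (0.0511 each) against the other Fix generations; it changed no other call of a gene named here. The cause was not tested. Where a group was left with 1 library, that library is assumed to vary like the other groups. Of 108 genes tested in the named set against CY84, 91 kept their direction in all of their alternatives. Rescaling turned RPE to 0.32, NAC5 to 0.27, PP2C30 to 0.023, IAA13 to 0.026, IAA24 to 0.18, IAA19 to 0.27, BRI1 to 0.22, EIL1 to 0.039, SGT1 to 0.21, CPS2 to 0.29 and COMT1 to 0.46. Leaving out 1 library gave differences of both signs for CAD2 (-0.15 to 1.06), AGO4A (-0.95 to 0.044), RPE (-0.37 to 0.078), RCA (-0.021 to 0.26), WRKY71 (-0.083 to 0.47), PIP1-1 (-0.052 to 0.76), IAA13 (-0.95 to 0.076), IAA19 (-0.40 to 0.039), BRI1 (-0.42 to 0.023), COI2 (-1.11 to 0.075), CPS2 (-0.62 to 0.35) and COMT1 (-0.12 to 0.10). Of 28 list medians 14 changed sign in some alternative, 11 of them with rescaling. Depth limits genes near 0, where absolute read numbers are unknown.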
